A study of Sus scrofa with 9 samples.

Results

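The insulin-like growth factor (IGF) family was followed in skeletal muscle of Bama minipigs, a small pig breed, after long feeding of an obesogenic diet. The family was taken as 8 genes, namely the ligands IGF1 and IGF2, the receptor IGF1R and the binding proteins IGFBP2, IGFBP3, IGFBP4, IGFBP5 and IGFBP6. Every array probe whose RefSeq accession belongs to one of these genes in the pig gene table was included, which gave 15 of 43603 probes and 8 of 3196 named genes. All 15 probes were bright enough to be tested.

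Longissimus dorsi, a muscle of the back, was measured on 1-colour Agilent arrays, 1 array per animal. In the HFHSD group, 6 animals ate a high-fat high-sucrose diet made of 53% basal feed, 37% sucrose and 10% lard. In the CD group, 3 animals ate standard pig chow. Feeding lasted 23 months from an age of 6 months in both groups, and all animals were gonadally intact, fed restricted meals and fasted overnight before dissection. Both sexes were used, without a sex label for the single animals. The series design counts 3 CD animals and the growth protocol 6, and 3 CD arrays are analysed here. Each array is a separate animal, so the spreads below include variation between animals, and the number of arrays limits the precision.

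IGF1 and IGF2 are small secreted hormones that act through IGF1R, a receptor tyrosine kinase, and onward through the PI3K, AKT and mTOR pathway to raise protein synthesis and muscle growth. IGF1 comes from the liver under growth hormone and is also made within muscle, while IGF2 is an imprinted gene expressed mainly from the paternal copy and is a known locus of muscle mass in pigs. The binding proteins hold IGFs outside the cell, where they can prolong the life of the hormone or keep it from the receptor.

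The arrays came from 3 slides. Both arrays of slide 1, HFHSD 5 and HFHSD 6, were scanned on another day than the rest. On slide 2 were the animals HFHSD 1, HFHSD 3 and HFHSD 4 with CD 1, and on slide 3 HFHSD 2 with both remaining CD animals, CD 2 and CD 3. The share of probes well above background was 51.2% to 68.9% on the HFHSD arrays, 63.4% on CD 2, 58.1% on CD 3 and 36.8% on CD 1. All 10 measured genes of the muscle fibre list were well above background on all 9 arrays, among them ACTA1, the skeletal actin, and CKM, the muscle creatine kinase. All 8 adipocyte markers had higher means in HFHSD, 1 of them, CIDEA, passed, and the median of their log2 differences was 1.35. The summed level of the 8 adipocyte markers was 112 to 371 times the array's 75th percentile in HFHSD and 86.6 to 116 times in CD, but LIPE and FABP4 made up 91.7% to 99.1% of the sum on each array. The other 6 markers summed to 2.54 to 10.8 times the 75th percentile in HFHSD and 1.97 to 2.22 times in CD. Of the 8 markers, 7 cleared the background on all HFHSD arrays and 5 on all CD arrays, while PLIN1, a coat protein of fat cell droplets, did so on 5 of 6 HFHSD and 0 of 3 CD arrays.

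No marker of the other lists passed. All 6 measured macrophage markers had lower means in HFHSD (median -0.24), as did all 3 smooth muscle markers, ACTA2, CNN1 and DES (median -0.55). DES was as bright as genes of the muscle fibre list such as MYH7. ACTA2, with means of 9.35 in HFHSD and 9.90 in CD, was as bright as MYH1 at 9.51 and 9.49. Neither DES nor ACTA2 need mark smooth muscle here. Both satellite cell markers also had lower means, with MYOD1, a regulator of the myogenic programme, at -1.93 (limma adjusted p = 0.0863) and without overlap between the groups. The MYOD1 probe was dim and cleared the background on 3 of 6 HFHSD and 2 of 3 CD arrays. The fibroblast list, of 4 measured genes, had a median of -0.03 and the endothelial list, also of 4, a median of 0.05. Of the muscle fibre list, 4 of 10 were higher and 6 lower, and 2, MYH2 at -0.996 and TNNT3 at -1.04, had groups without overlap. Groups were also without overlap for 4 of the 8 adipocyte markers and for no macrophage, smooth muscle, fibroblast or endothelial marker. Over all named genes the share without overlap was 13.1%. The part of these marker differences in the values below was not tested. In whole tissue, fewer cells of a type and less RNA per cell cannot be told apart.

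The levels below are log2 processed signals minus the array's 75th percentile, so 0 is the brightness that 75% of the probes of an array do not reach. Differences are HFHSD minus CD in log2, each gene is represented by its brightest probe unless stated, and adjusted p-values come from limma with Benjamini-Hochberg adjustment over 27925 tested probes, with a threshold of 0.05. No member of the family passed. IGFBP5 was nearest to the threshold with a higher mean in HFHSD, followed by IGFBP6, IGF1R and IGF1 among the members with lower means. At their brightest probes, IGF2, IGFBP2 and IGFBP3 had mean differences smaller than the spread between animals.

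The counts for the family were 0 of 15 probes past the threshold, against 1.23% of all tested probes, and 0 of 8 genes, against 0.995% of the 2613 named genes tested. At an unadjusted p under 0.05, 3 of 8 genes stood out (IGFBP5, IGFBP6 and IGF1R), where 18.4% of named genes did. The groups were free of overlap for 2 of 8 genes (IGF1 and IGF1R), where 13.1% of named genes were. The median difference of the 8 genes was -0.088, and that of all named genes was -0.085.

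**Figure D1:**
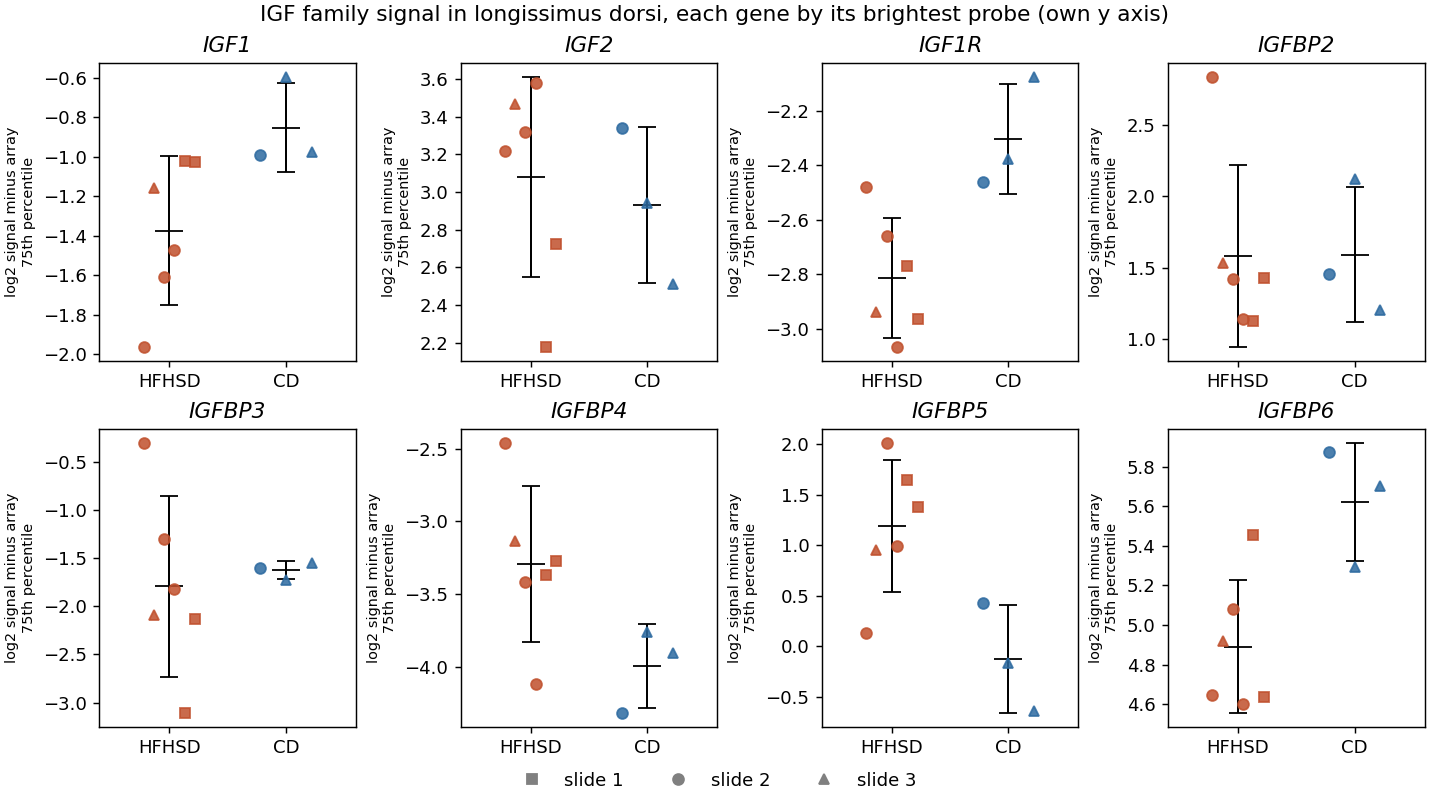
Log2 signal relative to the array's 75th percentile (y axis, a scale for each panel) of the 8 IGF family genes by their brightest probe, with HFHSD arrays left (6) and CD arrays right (3). Each point is 1 animal, marker shapes are slides, and bars are the mean and SD. For IGF1 and IGF1R every HFHSD point lies below every CD point, and for IGFBP5 HFHSD 1, at 0.13, is the only HFHSD point that does not lie above all CD points.

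Of the ligands, IGF1 had a lower mean in HFHSD. Its single probe (NM_214256) was -1.96 at the lowest, -1.32 at the median and -1.02 at the highest in the 6 HFHSD animals, and -0.99, -0.59 and -0.97 in CD 1, CD 2 and CD 3. The groups did not overlap, but the gap between HFHSD 5 and CD 1 was small, and the 2 HFHSD arrays of slide 1 were the nearest to the CD arrays. In unscaled brightness the groups did overlap. The IGF1 probe read 44.2 to 145 intensity units on the HFHSD arrays, and 67.7, 148 and 104 units on CD 1, CD 2 and CD 3. The means were -1.37 ± 0.38 (SD, n = 6) in HFHSD and -0.85 ± 0.22 (SD, n = 3) in CD, a difference of -0.52 (SE 0.25, limma adjusted p = 0.340), or a fold of 0.696. The 95% interval of the difference ran from -1.08 to 0.036. The IGF1 difference was -0.69 among the arrays of slide 2 and -0.37 among those of slide 3, and it shrank to -0.23 with normexp background correction and quantile normalisation.

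IGF2 was measured by 5 probes (NM_213883), and none of them separated the diets. The brightest probe was 2.18 at the lowest, 3.27 at the median and 3.58 at the highest in HFHSD, and 3.34, 2.94 and 2.51 in CD 1, CD 2 and CD 3. The HFHSD range enclosed that of CD. The difference was 0.15 (SE 0.33, limma adjusted p = 0.880), with a 95% interval from -0.59 to 0.89. The other 4 probes differed by 0.08, 0.17, 0.32 and 0.35, with adjusted p-values from 0.367 to 0.932, so all 5 had a higher mean in HFHSD and 0 passed. The difference of the brightest probe was -0.059 without CD 3 and 0.54 under normexp with the percentile scaling.

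The IGF2 probes did not follow each other equally well from animal to animal. After centring each probe on its mean over the 9 arrays, the brightest probe and the probes with differences of 0.08 and 0.17 lay within a root mean square distance of 0.12 to 0.16 of one another. The probes with differences of 0.32 and 0.35 lay 0.26 from each other and 0.33 to 0.47 from the first group. HFHSD 5 was the lowest HFHSD array for all 5 probes, but by different depths: the brightest probe was at 2.18 there, against 2.73 to 3.58 on the other HFHSD arrays, and the probe with the difference of 0.35 was at 1.22 there, against 1.22 to 1.49 on the others. This grouping of probes was seen in the values, and whether the probes lie on different IGF2 transcripts was not tested.

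The receptor IGF1R (NM_214172) had 2 probes, both dim. The brighter one was -3.07 at the lowest, -2.85 at the median and -2.48 at the highest in HFHSD, and -2.46, -2.38 and -2.07 in CD 1, CD 2 and CD 3. HFHSD lay below CD without overlap, although HFHSD 1 and CD 1 nearly met. The means were -2.81 ± 0.22 (SD, n = 6) in HFHSD and -2.30 ± 0.20 (SD, n = 3) in CD, a difference of -0.51 (SE 0.19, limma adjusted p = 0.223; 95% interval -0.94 to -0.08).

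In unscaled brightness the IGF1R probe read 20.4 to 37.9 intensity units on the HFHSD arrays and 24.4, 43.1 and 48.7 units on CD 1, CD 2 and CD 3, and these ranges overlapped. It cleared the background on 6 of 6 HFHSD arrays and on 2 of 3 CD arrays, CD 1 being the exception. The dimmer probe differed by -0.52 (SE 0.44, limma adjusted p = 0.635) and cleared the background on 2 of 6 HFHSD and 2 of 3 CD arrays. For the brighter probe the difference was -0.28 among the arrays of slide 2 and -0.71 among those of slide 3. With normexp background correction and quantile normalisation the difference shrank to -0.12.

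Among the binding proteins, IGFBP5 had the largest difference of the family. IGFBP5 is a secreted binder of IGF1 and IGF2 that in mouse is induced as myoblasts differentiate. Its single probe (NM_214099) was 0.13 at the lowest, 1.19 at the median and 2.02 at the highest in HFHSD, and 0.43, -0.17 and -0.64 in CD 1, CD 2 and CD 3. All HFHSD animals but HFHSD 1 lay above every CD animal, that is 5 of 6. The means were 1.19 ± 0.65 (SD, n = 6) in HFHSD and -0.13 ± 0.54 (SD, n = 3) in CD, a difference of 1.31 (SE 0.40, limma adjusted p = 0.131), or a fold of 2.48.

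The IGFBP5 interval ran from 0.42 to 2.20 before adjustment for the number of probes. The difference was 0.62 within slide 2, where CD 1 is the only CD array, and 1.36 within slide 3, where HFHSD 2 is the only HFHSD array. With slide as a fixed block it was 0.97 (limma adjusted p = 0.317). Over 21 alternatives it stayed between 0.97 and 1.59 and did not pass, and its smallest adjusted p was 0.0504, with array weights.

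IGFBP6, which prefers IGF2 as its ligand, had 2 probes (NM_001100190) with lower means in HFHSD. The brighter probe was 4.60 at the lowest, 4.78 at the median and 5.46 at the highest in HFHSD, and 5.87, 5.29 and 5.70 in CD 1, CD 2 and CD 3. In 5 of 6 HFHSD animals it lay below every CD animal, and HFHSD 5 lay between CD 2 and CD 3. The means were 4.89 ± 0.34 (SD, n = 6) in HFHSD and 5.62 ± 0.30 (SD, n = 3) in CD, a difference of -0.73 (SE 0.24, limma adjusted p = 0.165; 95% interval -1.28 to -0.19), or a fold of 0.602.

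The other IGFBP6 probe differed by -0.51 (limma adjusted p = 0.378), and after centring the probes lay a root mean square distance of 0.18 apart. For the brighter probe the difference was -1.10 in slide 2 and -0.58 in slide 3. With normexp and percentile scaling the difference shrank to -0.18, in a setting where the median of all tested probes moved to -0.17, against -0.02 in the reported scaling. The IGFBP6 difference was thus close to the median of all probes in that setting.

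IGFBP4, a binding protein that restrains IGF action until it is cleaved by the protease PAPPA, was close to the background. Its single probe (NM_001123129) was -4.12 at the lowest, -3.32 at the median and -2.46 at the highest in HFHSD, and -4.32, -3.76 and -3.91 in CD 1, CD 2 and CD 3. HFHSD 4 was the only HFHSD animal within the CD range. The difference was 0.70 (SE 0.32, limma adjusted p = 0.315; 95% interval -0.016 to 1.42).

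The IGFBP4 probe cleared the background on 5 of 6 HFHSD and 2 of 3 CD arrays. On the HFHSD arrays it read 9.8 to 31.4 intensity units, and on CD 1, CD 2 and CD 3 it read 6.7, 16.5 and 13.7 units. The size depended on background correction and scaling together: the difference was 0.17 with normexp and quantile normalisation and 1.29 with quantile normalisation alone. It turned to -0.24 under normexp with the percentile scaling, 1 of 20 alternatives, where the median of all tested probes was -0.17.

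IGFBP2, which in blood is known to vary with nutrition and body fat, and IGFBP3, the main IGF carrier of blood, differed little in their means. IGFBP3 varied much between HFHSD animals, while the spread of IGFBP2 came mainly from HFHSD 1. The brighter of the 2 IGFBP2 probes (NM_214003) was 1.13 at the lowest, 1.42 at the median and 2.84 at the highest in HFHSD, and 1.45, 2.12 and 1.20 in CD 1, CD 2 and CD 3. The groups overlapped, and the top value was that of HFHSD 1, with the other HFHSD arrays between 1.13 and 1.53. The difference was -0.011 (SE 0.38, limma adjusted p = 0.994), with a 95% interval from -0.87 to 0.85, and the other probe differed by -0.0049. The sign was not settled: leaving out single arrays moved the difference of the brighter probe between -0.26 (without HFHSD 1) and 0.25 (without CD 2).

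The IGFBP3 probe (NM_001005156) was -3.11 at the lowest, -1.95 at the median and -0.30 at the highest in HFHSD, and -1.60, -1.73 and -1.55 in CD 1, CD 2 and CD 3. The CD animals lay close together inside the HFHSD range, which spanned 7.00-fold from HFHSD 5 to HFHSD 1. The difference was -0.17 (SE 0.50, limma adjusted p = 0.916; 95% interval -1.27 to 0.94). The SD within HFHSD was 0.94, larger than that of 89.7% of the 2613 named genes in the same animals, against 0.09 in CD. Of the CD arrays, CD 1 was not well above background for IGFBP3. Without HFHSD 5 the IGFBP3 difference was 0.097.

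HFHSD 1 stood at the edge of the HFHSD group for several members. It had the highest IGFBP2, IGFBP3 and IGFBP4 of the HFHSD animals, the highest value of the brighter IGF1R probe, and the lowest IGF1 and IGFBP5. It was also the highest HFHSD animal for 3 of the 8 adipocyte markers, LIPE, FABP4 and PLIN1, and not for the other 5. The 6 markers other than LIPE and FABP4 summed to 9.61 on HFHSD 1, within the HFHSD range of 2.54 to 10.8. HFHSD 4 was the lowest HFHSD animal for 7 of the 8 markers. Among the family probes it was also the lowest for IGFBP4, both IGFBP6 probes, the brighter IGF1R probe and the dimmer IGFBP2 probe. For the brightest IGF2 probe it was the highest HFHSD animal. LIPE did not follow the other 7 markers on HFHSD 4: it was at 7.85 there, in an HFHSD range of 5.71 to 7.91. The part of fat cell RNA in the values of the family members was not tested. Without HFHSD 1 the differences were -0.26 for IGFBP2, -0.46 for IGFBP3, 0.53 for IGFBP4, 1.52 for IGFBP5 (limma adjusted p = 0.0693) and -0.40 for IGF1.

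**Figure D2:**
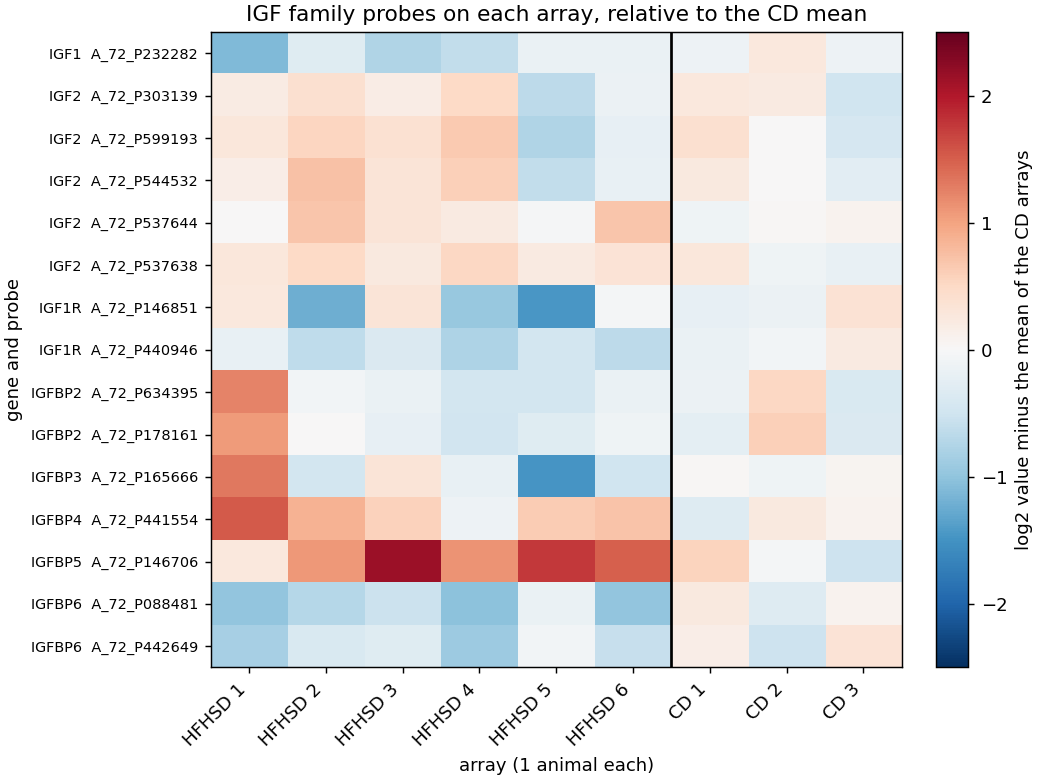
Log2 value of each of the 15 probes (rows) on each of the 9 arrays (columns, HFHSD left of the line and CD right) minus the probe's mean over the CD arrays, with red higher and blue lower. IGFBP5 is red across the HFHSD arrays, deepest on HFHSD 3, IGFBP6 is blue there, and HFHSD 1 stands out in red for IGFBP2, IGFBP3 and IGFBP4.

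The genes of IGFBP2 and IGFBP5 are immediate neighbours among the protein-coding genes of the Sscrofa11.1 table, and their values are set side by side here. IGFBP5 differed by 1.31 and IGFBP2 by -0.011, and their centred profiles over the 9 arrays were a root mean square distance of 1.14 apart. Of the 28 pairs of members, IGF1R and IGFBP6 were the closest at 0.33, followed by IGF1 and IGFBP6 at 0.40 and by IGF1 and IGF1R at 0.44. IGFBP3 and IGFBP5 were the farthest apart at 1.29. Genes that vary little lie close to each other by this measure, and the SD over the 9 arrays ran from 0.32 for IGF1R to 0.88 for IGFBP5.

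**Figure D3:**
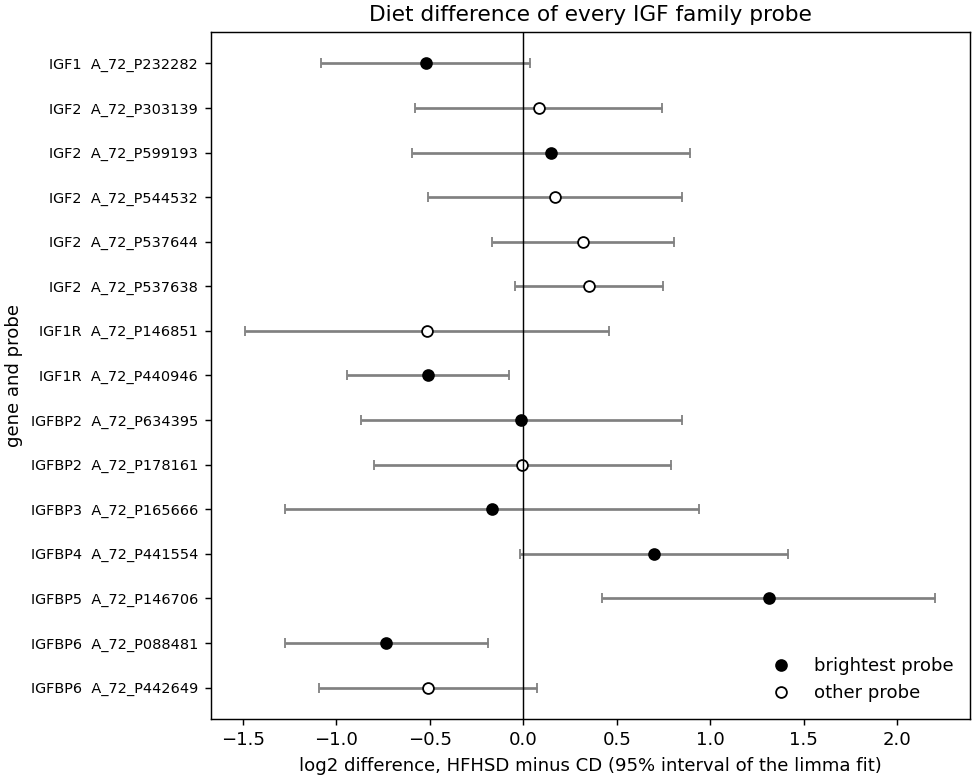
Log2 difference, HFHSD minus CD (x axis), of the 15 probes (rows) with the unadjusted 95% interval of the limma fit, with filled points for the brightest probe of a gene and open points for the others. The intervals of the IGFBP5 probe, the brighter IGFBP6 probe and the brighter IGF1R probe leave out 0, and no probe passed after adjustment.

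As a view of each gene on its own, an exact two-sided permutation test was run over the 84 ways to split the 9 arrays into 6 and 3, where the smallest possible p is 0.0119. The exact permutation p was 0.0238 for IGF1R and 0.0357 for each of IGF1, IGFBP5 and IGFBP6. It was 0.0952 for IGFBP4, 0.679 for IGFBP3, 0.690 for IGF2 and 0.976 for IGFBP2. These are values of the brightest probes, and other probes of a gene could differ. The IGF2 probe with the difference of 0.35 had an exact permutation p of 0.0357, and the remaining IGF2 probes had 0.155 to 0.774. For the dimmer IGFBP6 and IGF1R probes the exact permutation p was 0.0833 and 0.381. These p-values are not adjusted for the number of genes and take no account of slide. Exchanging arrays only within slides would leave 12 splits and no p under 0.0833, and none of the 8 genes passed over all tested probes.

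The genes whose centred profiles lay closest to each member were looked up among 2612 other named genes, 3 for each member, as a description over the 9 arrays. For IGFBP5 they were AMT, AKR1CL1 and FCGR3A, at root mean square distances of 0.39, 0.41 and 0.45. These 3 genes differed by 1.33, 1.02 and 1.19 between the diets, and of them FCGR3A alone passed (limma adjusted p = 0.0338). FCGR3A was not on the macrophage list above, whose measured genes had lower means in HFHSD. For IGFBP4 they were S100A14, FABP4 and KIAA1958, at 0.25, 0.31 and 0.32. FABP4 is one of the 8 adipocyte markers above, and it differed by 0.32 between the diets.

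For IGF1 the closest genes were SLC22A4, PIK3R5 and CSNK2B, at 0.13, 0.17 and 0.20, and for IGF1R they were KDM5C, SEPHS2 and GNL1, at 0.13, 0.14 and 0.14. For IGF2 they were AKAP9, SPARC and SLA-DRA, at 0.20, 0.20 and 0.22. For IGFBP6 they were ZAR1, ACP5 and PEAK1, at 0.17, 0.18 and 0.19. Closest to IGFBP2 were PRIM1, ARL3 and DSTN, at 0.24, 0.25 and 0.27. Closest to IGFBP3 were PROCR, MAOA and BTG1, at 0.30, 0.32 and 0.33.

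Other genes of the IGF and growth hormone pathway were examined through a list of 63, of which 20 had a tested probe. None of the 20 passed, 9 were higher and 11 lower in HFHSD, and their median difference was -0.080, close to the -0.085 of all named genes. At an unadjusted p under 0.05, 4 of 20 stood out (SOCS2, JAK2, MTOR and SOCS3), beside 18.4% of named genes. INSR, AKT2, FOXO1, PAPPA and ZBED6 were among the 43 without a tested probe.

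SOCS2, a feedback inhibitor of growth hormone receptor signalling, had the largest difference of the list. It was -4.59 at the lowest, -3.84 at the median and -3.37 at the highest in HFHSD, and -2.63, -2.92 and -2.67 in CD 1, CD 2 and CD 3. All HFHSD animals lay below all CD animals, and the difference was -1.16 (SE 0.25, limma adjusted p = 0.0595), with -1.32 within slide 2 and -1.23 within slide 3. The probe was dim and cleared the background on 3 of 6 HFHSD and 2 of 3 CD arrays, and the difference shrank to -0.43 with normexp and quantile normalisation. SOCS2 passed in 4 of 20 alternatives, among them without HFHSD 4 (limma adjusted p = 0.0475).

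Upstream of IGF1 production, JAK2, the kinase bound to the growth hormone receptor, differed by 0.55 (limma adjusted p = 0.230) and by 0.34 under normexp with the percentile scaling. For SOCS3, another feedback inhibitor, the difference was -0.59 (limma adjusted p = 0.296), and normexp plus quantile normalisation brought it to -0.11. The SOCS3 probe was also dim and cleared the background on 3 of 6 HFHSD and 2 of 3 CD arrays. Outside the cell, STC1, a secreted glycoprotein, was at -0.93 on HFHSD 1 and between -4.49 and -3.53 on the other HFHSD arrays, and at -3.67, -3.84 and -4.46 on CD 1, CD 2 and CD 3. Its difference of 0.39 rested on that animal and was -0.14 without it, and the probe cleared the background on 4 of 6 HFHSD and 1 of 3 CD arrays. The remaining 9 genes, among them GHR, the growth hormone receptor, STAT5A and STAT5B, which JAK2 activates, IGF2R, which clears IGF2, IGFALS, a partner of IGFBP3 in blood, IGFBP7, AKT1 and FOXO3, differed by -0.25 to 0.24, with adjusted p-values from 0.768 to 0.986.

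Downstream of the receptor, IRS1, the docking protein for PI3K, differed by 0.58 (limma adjusted p = 0.350) and by 0.12 under normexp with the percentile scaling, and the adaptor GRB10 by 0.30 and 0.76. MTOR, the kinase that drives protein synthesis, was 2.28 at the lowest, 2.73 at the median and 2.96 at the highest in HFHSD, and 3.31, 3.17 and 3.07 in CD 1, CD 2 and CD 3. The diets did not overlap for MTOR, but the difference of -0.48 did not pass (SE 0.20, limma adjusted p = 0.261) and shrank to -0.037 under normexp with the percentile scaling. GSK3B, a kinase that AKT inhibits, differed by -0.41, against 0.020 in that setting. NRAS, GRB2 and MAP2K1, of the MAP kinase branch, differed by 0.35, -0.24 and 0.22, and in that setting NRAS stood at -0.14, GRB2 at 0.19 and MAP2K1 at 0.59.

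**Figure D4:**
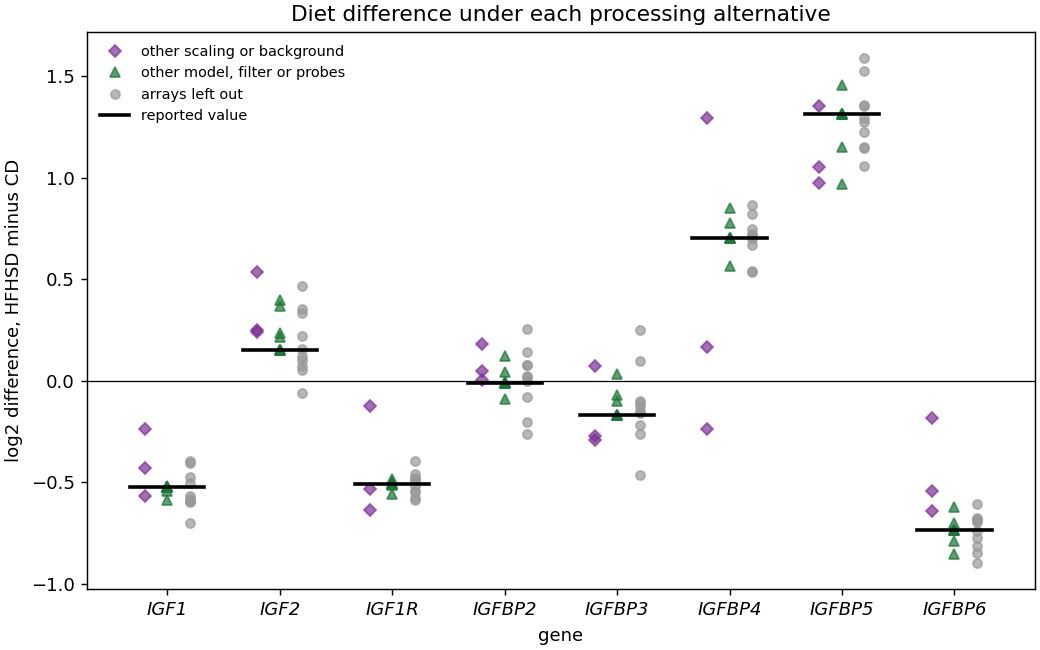
Log2 difference, HFHSD minus CD (y axis), of the 8 genes (x axis) under each processing alternative, with the reported value as a black line, other scalings or background corrections as diamonds, other models, filters or probe means as triangles and fits with arrays left out as circles. IGFBP5 stays above 0 and IGF1, IGF1R and IGFBP6 stay below 0 in all alternatives shown, while IGFBP2, IGFBP3, IGFBP4 and IGF2 cross it.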

How the data were processed

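The 9 scanner files (6 HFHSD, 3 CD) give linear spot intensities, made by the authors in Agilent Feature Extraction 10.7.3.1, per the file headers. That software subtracts background within an array and does not scale arrays to each other. In the series-wide table that was deposited, the intensities were the same, with 0 spots differing on each array.

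Control spots and outlier spots were left out, spots of a probe were averaged, and 22 of 43603 probes were dropped. Values were scaled by subtracting each array's 75th percentile in log2 and fitted with limma 3.58.1 in R 4.3.3 (lmFit, eBayes, two-sided, no covariates) over probes well above background on at least 3 arrays. P-values were adjusted by Benjamini-Hochberg over the 27925 probes, with a threshold of 0.05. The script was checked on simulated data.

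Accessions were matched without versions to RefSeq names (Sscrofa11.1, names and gene order only), which named 6891 probes and left 36712 unnamed. The files name no genome build, so no coordinates are given. Replicate numbers follow accession order and only name arrays. The members, the gene lists and the tests were chosen with earlier results of these data known. Genes named are all members, the pathway genes with the smallest p (5 in each direction) and the 3 genes nearest each member in centred profile; STC1, also of the pathway list, was added after its values were seen. Alternatives were other scalings, background corrections, filters, models and probe summaries, and leaving out each array; normexp used the median spot signal (offset 50), the spot signal these files hold.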

Additional observations from a re-analysis of the deposited data

Results flagged for a closer look

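Of 26 profiles examined over the 6 HFHSD arrays (the 15 family probes and 11 pathway genes), 3 had a single array far from the others, and in all 3 it was HFHSD 1. The brighter IGFBP2 probe was at 2.84 on HFHSD 1 and between 1.13 and 1.53 on the other HFHSD arrays, and the dimmer one was at 2.10 there and between 0.55 and 1.04 on the others. STC1 was at -0.93 on HFHSD 1 and between -4.49 and -3.53 on the other HFHSD arrays. Chance alone gives such a gap in about 1 of 20 groups, and the IGFBP2 probes measure the same RNA, so they count as 1 observation. STC1 was added to the profiles after its values were seen, so that rate does not apply to it.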

How the results depend on the processing

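Over 20 alternatives, 0 of 15 family probes passed in any. IGF1, IGF1R, IGFBP5 and IGFBP6 kept their direction in every alternative that gave a value. IGFBP4 was -0.24 under normexp with the percentile scaling, and IGF2 turned to -0.059 without CD 3, with a range of -0.059 to 0.35 when single arrays were left out. IGFBP3 turned to 0.073 with normexp and quantile normalisation, 0.032 with slide as a fixed block, 0.097 without HFHSD 5 and 0.25 without slide 1, and ran from -0.46 to 0.097 when single arrays were left out. IGFBP2, close to 0, turned to 0.049 with quantile normalisation, 0.18 with normexp and the percentile, 0.0027 with normexp and quantile normalisation, 0.12 and 0.044 with slide as a fixed and a random block and 0.14 without slide 1, and with single arrays left out it ran from -0.26 to 0.25. GRB2 (0.19), GSK3B (0.020), NRAS (-0.14) and STC1 (-0.23) turned under normexp with the percentile scaling, and STC1 ran from -0.14 (without HFHSD 1) to 0.57 when single arrays were left out. The number of pathway genes that passed was 0 as reported and 1, SOCS2, with quantile normalisation (adjusted p = 0.0490), slide as a random block (0.0454), array weights (0.0340) and without HFHSD 4 (0.0475), and it ran from 0 to 1 with single arrays left out. The number of all probes that passed was 344 (194 higher, 150 lower), and it was 88 with normexp and percentile scaling (63 higher, 25 lower), 856 with normexp and quantile normalisation (408 higher, 448 lower), 66 without a filter on dim probes, 736 with probes well above background on all arrays (281 higher, 455 lower), 84 and 677 with slide as a fixed and a random block, 612 with a variance trend, 1205 with array weights, and 57 without slide 1. With single arrays left out it ran from 25 (without CD 3) to 324 (without HFHSD 4), with 32 without CD 1, 87 without CD 2, and 99, 75, 161 and 93 without HFHSD 2, HFHSD 3, HFHSD 5 and HFHSD 6. IGF1R, IGFBP3 and IGFBP4 were not well above background on all arrays and have no value under that filter. The alternative without slide 1 was chosen after seeing the data. The labels pair no HFHSD animal with a CD animal, so no paired analysis was run.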
